A study of Mus musculus with 29 samples.

Results

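Ligation of the common bile duct stops bile from leaving the liver, and the question here was for which genes the response of the liver 7 days after ligation differed from its response after 1 day. For each gene the level in ligated livers minus that in sham-operated livers was taken at day 7, the same difference was taken at day 1, and the latter was subtracted from the former. The result is called the difference of effects below, on the log2 scale, where a step of 1 is a change by a factor of 2. Of the 29 arrays in the series, 17 enter it, each from a liver of its own. They are 5 arrays of bile duct ligation (BDL) and 4 of sham surgery at day 7, and 5 of BDL and 3 of sham surgery at day 1. The other 12 arrays, of days 3 and 21, only add to the estimate of the spread.

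All animals were male C57BL/6N mice, 8 to 10 weeks old, on a standard diet with free access before and after surgery. They carried no other treatment or altered gene that the labels name. Ligated mice had the extrahepatic common bile duct tied, and sham mice were operated on without it, so both kinds carry the surgery. Whole liver RNA was measured on Affymetrix arrays and values are log2 levels. In bulk tissue, fewer cells of a type and less RNA per cell cannot be told apart.

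Bile acids are made from cholesterol in hepatocytes, taken up again from portal blood through transporters of the sinusoidal membrane, and pumped into the bile canaliculus. When bile cannot drain, bile acids act on nuclear receptors that turn down their own synthesis and uptake, and later the ducts proliferate, macrophages gather and stellate cells lay down a collagen scar. Male mouse liver also carries a program set by pulses of growth hormone, which includes major urinary proteins and certain cytochromes and transporters.

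The arrays did not stand equal. Of the 8 day 1 arrays, 4 (sham replicates 1 and 3 and BDL replicates 2 and 3) had an SD over genes of 1.55 to 1.58, against 1.64 to 1.70 on the other 25 arrays of the series, and a mean level of 73 small nucleolar RNA genes of 8.88 to 9.33, against 7.62 to 8.41. Both day 1 groups hold 2 of these arrays and the day 7 groups hold none. Sham replicate 1 of day 7 also stood apart, with 41 genes at least 1 above and 33 at least 1 below the other 3 arrays of its group. Sham replicate 2 of day 1, the array of its group outside the set, had 210 genes at least 1 above and 65 at least 1 below the other 2. No pair of arrays held the same values. Albumin, the main protein made by hepatocytes, had group means of 14.03 to 14.17, and its difference of effects was 0.02 ± 0.10 (SE).

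Across 14699 genes tested, the ligation effect differed between the days for 637 (4.33%) by limma at an adjusted p under 0.05. It was higher at day 7 for 511 genes (3.48%) and lower for 126 (0.857%), and by at least a factor of 2 for 269 and 34 genes. The median over all genes tested was 0.02. With a term for the 4 unlike day 1 arrays, 1076 genes passed (7.32%), 856 higher (5.82%) and 220 lower (1.5%), of which 635 were among the 637. Without those arrays, which leaves 1 sham and 3 BDL arrays at day 1, 287 passed (243 and 44). Without sham replicate 2 of day 1, the only sham array of that day outside the set, 739 passed, split into 409 higher and 330 lower.

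**Figure D1:**
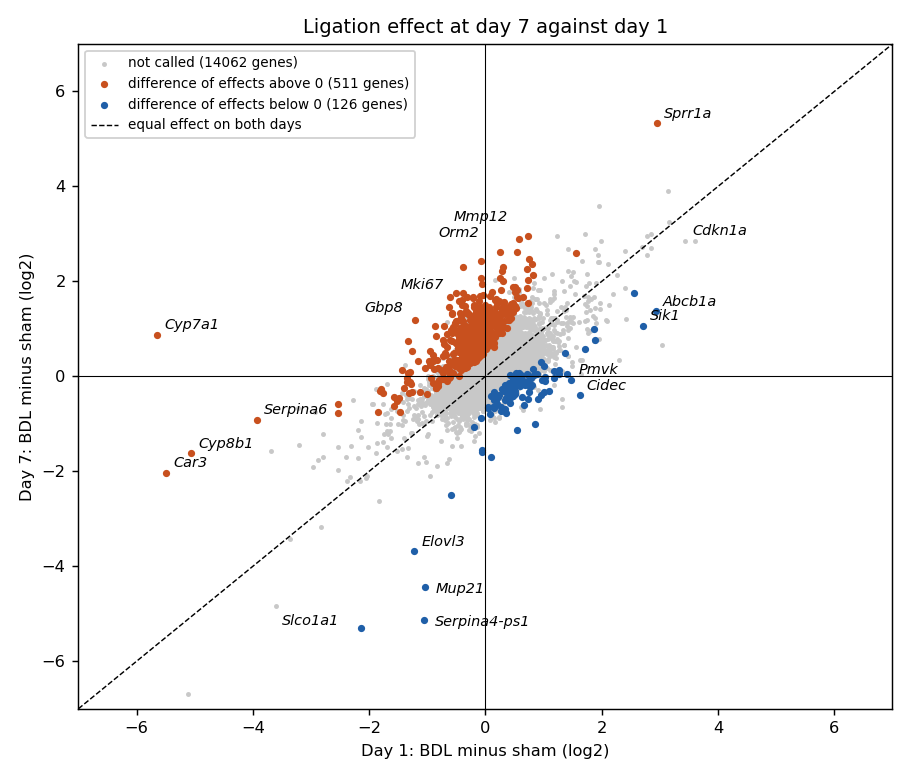
Each point is 1 of 14699 genes, with BDL minus sham at day 1 on the horizontal axis and at day 7 on the vertical axis, both in log2. Genes above the dashed line had a higher effect at day 7, and the 511 and 126 genes that passed the test are coloured. Cyp7a1, Car3 and Cyp8b1 lie far left, where the fall was deeper at day 1, and Slco1a1, Mup21 and Serpina4-ps1 lie at the bottom, where the fall was deeper at day 7.

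Most of the genes with a higher effect were called between BDL and sham at day 7 and not at day 1. A missing call at day 1, with 3 shams, does not show that there was no early change. Of the 511, 397 (77.7%) had no call between BDL and sham at day 1 and were higher in BDL at day 7. A further 69 (13.5%) had been lower in BDL at day 1 and carried no call at day 7. Another 14 went from lower at day 1 to higher at day 7, 9 were lower at both times and 9 higher at both. Of the 126 genes with a lower effect, 74 (58.7%) were higher in BDL at day 1 with no call at day 7, 31 (24.6%) were lower at day 7 only, and 5 went from higher to lower. Between the 2 BDL groups 31.6% of all genes differed (21.9% higher and 9.69% lower at day 7), and between the 2 sham groups 4.11% (2.96% and 1.15%). Of the 511, 487 (95.3%) differed between the 2 BDL groups and not between the 2 sham groups, as did 98 (77.8%) of the 126.

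The enzymes Cyp7a1 and Cyp8b1 of bile acid synthesis fell at day 1, and at day 7 Cyp8b1 was still lower and Cyp7a1 carried no call. Cyp7a1, the enzyme that limits the rate of the classical pathway, read 11.16, 9.32 and 9.34 in the sham livers of day 1 and 5.78, 4.23, 3.21, 3.76 and 4.47 in the ligated ones. By day 7 the values were 10.86, 10.87, 10.84 and 9.81 in sham livers and 11.36, 11.51, 11.80, 11.63 and 11.06 in ligated livers. All ligated livers of day 1 were below every sham liver, and all ligated livers of day 7 were above every sham liver of their day. BDL minus sham was -5.65 ± 0.86 (SE) at day 1 (limma, adjusted p 4.5e-05) and 0.87 ± 0.79 at day 7 (adjusted p 0.503), and the difference of effects was 6.52 ± 1.17 (adjusted p 0.00193). The mean of the ligated livers of day 1, 4.29, lies under the filter level of 5, where a level is not told apart from background, so the size is uncertain. Without the 4 unlike arrays it was 5.53 (adjusted p 0.0800).

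Cyp8b1, which makes the 12-hydroxylated branch of bile acids, had recovered only in part. Sham livers read 10.48, 9.89 and 10.31 at day 1 and 9.65, 10.75, 10.32 and 10.68 at day 7. Ligated livers read 5.02, 5.75, 4.79, 5.12 and 5.13 at day 1 and 9.03, 8.34, 9.36, 9.13 and 7.78 at day 7. The ligated groups did not overlap with their shams or with each other. BDL minus sham was -5.07 at day 1 and -1.62 at day 7, and the difference of effects, 3.44 ± 0.57 (adjusted p 0.00101), passed the test under every alternative tried. Of the 15 tested genes of bile acid synthesis and conjugation, these 2 were the only ones to pass. The list's median was 0.21, against 0.02 over all genes. Cyp7b1, of the alternative pathway, gave nearly equal effects of -2.33 at day 1 and -2.12 at day 7 (difference 0.21, adjusted p 0.847), and Cyp27a1 gave -0.32 and -0.29.

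**Figure D2:**
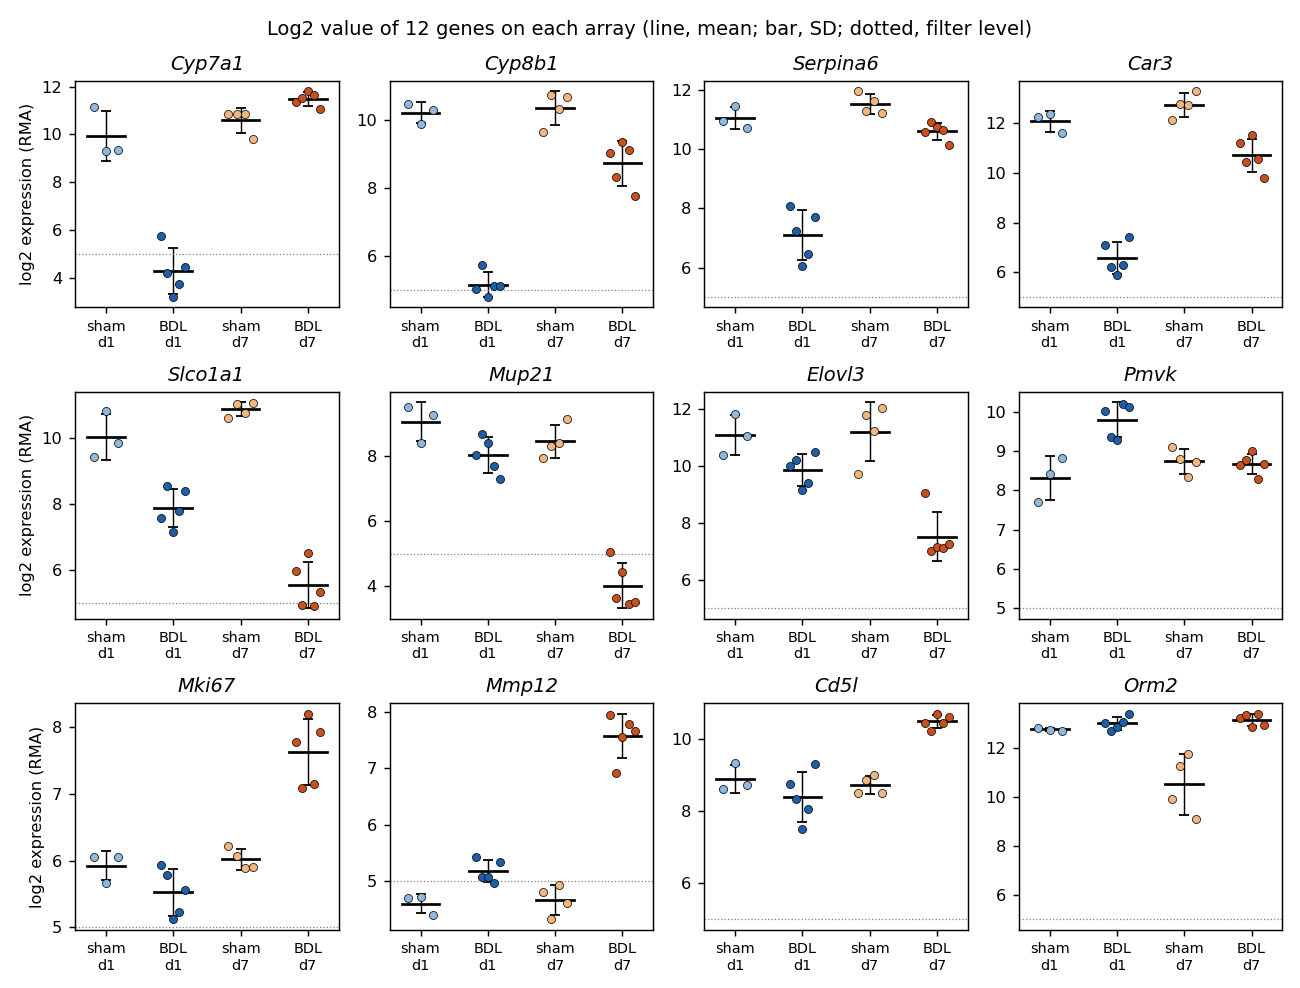
Log2 level of 12 genes on each of the 17 arrays, by group, with the group mean as a line and the SD as a bar; the dotted line is the filter level of 5. Cyp7a1, Cyp8b1, Serpina6 and Car3 are low in the ligated livers of day 1, Slco1a1, Mup21 and Elovl3 are lowest in those of day 7, Pmvk is high in those of day 1, Mki67, Mmp12 and Cd5l are high in those of day 7, and Orm2 is low only in the sham livers of day 7.

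Of 8 tested uptake carriers 5 were lower and 1 higher in BDL on each day, and of 10 export genes 4 were higher and 1 lower on each day. Of all genes, 4.8% were lower at day 1 and 4.97% at day 7, and 8.52% and 14.2% were higher. Slco1a1, an organic anion uptake carrier of the sinusoidal membrane, read 9.43, 10.80 and 9.84 in day 1 shams and 7.57, 8.53, 7.14, 7.79 and 8.39 in ligated livers. At day 7 the shams read 10.61, 11.02, 10.74 and 11.04 and the ligated livers 5.97, 4.95, 6.53, 4.92 and 5.35. Every ligated liver of day 7 was below every ligated liver of day 1. BDL minus sham was -2.14 at day 1 and -5.31 at day 7, with a difference of effects of -3.17 ± 0.50 (adjusted p 0.00094), called under every alternative tried. None of the other 7 uptake carriers passed. Slc10a1, the main sodium-dependent bile acid carrier NTCP, gave -1.08 at day 1 and -0.75 at day 7, both called (difference 0.34, adjusted p 0.652).

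On the export side, Abcb1a, a multidrug exporter, read 5.44, 6.09 and 5.33 in day 1 shams and 8.68, 8.42, 8.07, 8.47 and 9.09 in ligated livers. The day 7 shams read 6.50, 6.27, 6.10 and 5.50 and the ligated livers 7.28, 7.64, 7.61, 7.16 and 7.63. It was above sham on both days without overlap, by 2.93 and 1.37, and the difference of effects was -1.56 ± 0.33 (adjusted p 0.00704). Abcb4, the canalicular phospholipid flippase, was likewise higher by 1.37 and 0.49, with a difference of -0.87 ± 0.26 (adjusted p 0.0467). That call was lost in 14 of 17 fits with 1 array left out, with an adjusted p of up to 0.2. These were 2 of 10 tested export genes. Abcb11, the bile salt export pump, gave 0.57 and 0.26 (difference -0.32, adjusted p 0.674). Of 10 bile acid receptor and feedback genes only Nr1h4, the bile acid receptor FXR, passed. It was lower in BDL on both days, less so at day 7 (-0.37), and its difference of 0.63 ± 0.18 (adjusted p 0.0364) was lost in 8 of those 17 fits and under cyclic loess.

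Some secreted and cytosolic hepatocyte genes followed Cyp8b1. Serpina6, which encodes the plasma carrier of glucocorticoids, read 10.94, 11.44 and 10.72 in day 1 shams and 8.08, 7.24, 6.04, 6.46 and 7.69 in ligated livers. On day 7 the arrays gave 11.94, 11.26, 11.62 and 11.20 in shams and 10.56, 10.90, 10.73, 10.63 and 10.14 in ligated livers. It fell by 3.93 at day 1 and gave -0.92 at day 7 without a call (adjusted p 0.278). The difference was 3.01 ± 0.82 (adjusted p 0.0323).

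Car3, the carbonic anhydrase abundant in hepatocytes, gave -5.49 at day 1 and -2.03 at day 7, both called. Its difference of effects was 3.46 ± 0.97 (adjusted p 0.0372). Cyp2c50, a pericentral cytochrome with near-identical relatives, gave -2.54 at day 1 and -0.76, without a call, at day 7 (difference 1.78 ± 0.45, adjusted p 0.0203). With 1 array left out in turn, Serpina6 lost its call in 8 of 17 fits (adjusted p up to 0.0648), Car3 in 12 (up to 0.0744) and Cyp2c50 without sham replicate 2 of day 1 (0.0553, difference 1.55). Of 18 pericentral genes Cyp2c50 alone passed. Glul, glutamine synthetase of the pericentral rim, fell by 1.76 at day 1 and carried no call at day 7 (-0.57), but its difference of 1.19 did not pass (adjusted p 0.114). None of 15 periportal genes passed, although 1 did with the term for the array set and without the 4 unlike arrays.

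Some male-biased genes were lower in BDL at day 7 than at day 1 relative to sham. Mup21 and Slco1a1 were called lower on both days, and the other 4 with a lower effect (Elovl3, Cyp4a12a, Mup3 and Serpina1e) at day 7 only. The day 1 call of Mup21 was at the threshold (-1.04, limma, adjusted p 0.0496). It was lost with the term for the array set (-0.80, adjusted p 0.105). Mup21, a major urinary protein gene, read 9.53, 8.41 and 9.28 in day 1 shams and 8.04, 8.68, 8.42, 7.71 and 7.29 in ligated livers. At day 7 the shams read 7.94, 8.32, 8.41 and 9.16 and the ligated livers 5.06, 3.64, 4.42, 3.45 and 3.51. The day 1 groups overlapped, while the day 7 groups lay far apart. The difference of effects was -3.40 ± 0.48 (adjusted p 0.000604), called under every alternative tried. Its mean of 4.01 in the ligated livers of day 7 is under the filter level, and copies of the Mup family are so alike that their signals may mix.

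Mup3 lay within 13.59 to 13.79 in all 8 livers of day 1 and at 13.74 to 14.00 in day 7 shams, against 12.12 to 12.84 in day 7 ligated livers. Its difference was -1.55 ± 0.27 (adjusted p 0.00144). Elovl3, a fatty acid elongase, read 10.38, 11.81 and 11.06 in day 1 shams and 9.16 to 10.49 in ligated livers. At day 7 it read 9.72, 11.79, 11.22 and 12.02 in shams and 9.03, 7.00, 7.16, 7.10 and 7.24 in ligated livers. The highest ligated liver of day 7 stood closer to the lowest sham than to its own group. The difference of -2.45 ± 0.64 (adjusted p 0.0256) was lost without sham replicates 2 or 4 of day 7 or 1 or 3 of day 1, with values of -2.94 to -2.10 over all 17 such fits.

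Cyp4a12a, a fatty acid hydroxylase, gave -1.90 ± 0.49 (adjusted p 0.0243), lost without sham replicate 4 of day 7 or sham replicate 3 of day 1 (adjusted p up to 0.0652). Of 18 tested male-biased genes 6 passed with a lower effect at day 7 (0.857% of all genes) and 1 with a higher effect, and the list's median was -0.51. The count ranged from 4 to 8 with 1 array left out. Of the 18, 10 were already lower in BDL at day 1 (4.8% of all genes) and 13 at day 7 (4.97% of all genes). The list's median effect was -1.08 at day 1 and -1.57 at day 7. Hsd3b5, a steroid dehydrogenase, already gave -5.11 at day 1 and gave -6.68 at day 7 (difference -1.57, adjusted p 0.148), and Moxd1 gave -3.36 and -3.42. None of 8 tested female-biased genes passed. Serpina4-ps1, a pseudogene of the serpin family with near-identical relatives, fell by 5.14 at day 7 and showed -1.06 without a call at day 1. Its difference of -4.08 ± 1.00 (adjusted p 0.0166) was lost without sham replicate 1 of day 1 (-3.15, adjusted p 0.0725). Without the 4 unlike arrays it was -2.16. The shams of this gene ranged from 8.27 to 11.95 at day 1.

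Most cholesterol genes were higher in ligated livers at day 1 and carried no call at day 7. Pmvk, phosphomevalonate kinase, read 7.71, 8.42 and 8.81 in day 1 shams and 10.01, 9.36, 9.27, 10.19 and 10.13 in ligated livers. Day 7 levels were 9.09, 8.80, 8.33 and 8.72 in shams and 8.65, 8.76, 8.99, 8.28 and 8.68 in ligated livers. The groups did not overlap at day 1 and overlapped at day 7. Its difference of effects was -1.54 ± 0.35 (adjusted p 0.0100). Over 17 tested genes of cholesterol synthesis and uptake, 12 were higher in BDL at day 1 (8.52% of all genes) and 1 at day 7 (14.2% of all genes), with medians of 0.93 and 0.20.

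All 17 differences of effects were below 0, from -1.54 for Pmvk to -0.15 for Sc5d, with a median of -0.73. Only 3 passed, the others being Hsd17b7 (-1.22, adjusted p 0.0480) and Stard4 (-0.99, adjusted p 0.0498), a sterol carrier that had no call at day 1 and fell by 0.72 at day 7. Their calls were lost in 12 and 13 of 17 fits with 1 array left out, and that of Hsd17b7 also with the term for the array set. Sqle, the squalene epoxidase, gave 1.67 at day 1 and 0.34 at day 7, yet its difference of -1.33 did not pass (adjusted p 0.112). Aacs, which turns acetoacetate into a precursor for lipid synthesis, read 7.58 to 8.09 in day 7 ligated livers against 8.05 to 9.41 in shams, and 8.42 to 9.32 against 7.62 to 8.78 at day 1. Its difference was -1.84 ± 0.40 (adjusted p 0.00738).

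Other genes of lipid handling were called with a lower effect. Cidec, a lipid droplet protein, was 1.62 above sham at day 1 and showed -0.40, with no call, at day 7 (difference -2.02 ± 0.58, adjusted p 0.0432, lost in 13 of 17 fits). Lipg, endothelial lipase, gave -1.69 ± 0.41 (adjusted p 0.0175). Pex11a, which acts in the division of peroxisomes, read 7.09 to 7.40 in day 7 ligated livers against 7.85 to 8.20 in shams, and its difference of -1.13 ± 0.19 (adjusted p 0.00115) was called under every alternative tried. It was the only one of 18 fatty acid oxidation genes to pass. Me1, malic enzyme, gave -0.93 ± 0.25 (adjusted p 0.0343) and was unlike most called genes in its source, since the shams rose from day 1 to day 7 by 1.08 and the ligated livers showed 0.15 with no call.

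Fgf21 and Dnajb9 were higher in ligated than in sham livers at day 1 and near sham at day 7. Fgf21, a hormone of the fasted and stressed liver, was higher by 1.02 at day 1 and showed -0.10 at day 7 (difference -1.12 ± 0.28, adjusted p 0.0180, lost without sham replicate 3 of day 1 at 0.0552). Dnajb9, a chaperone partner of the endoplasmic reticulum, gave 1.19 and -0.03 (difference -1.21, adjusted p 0.0461, lost in 14 of 17 fits). From day 1 to day 7 its shams showed 0.92 and its ligated livers -0.30, neither called. Without the 4 unlike arrays its difference was -0.48. Fgf21 and Dnajb9 were the 2 called of 16 genes of the unfolded protein and integrated stress response (0.857% of all genes had a lower effect). Of these 16, 4 were higher in BDL at day 1 (8.52% of all genes). A difference below 0 was seen for 15 (median -0.39), and for 7026 of all 14699 genes. Sik1, a kinase induced by cyclic AMP, read 8.04, 8.16 and 8.19 in day 1 shams and 10.46 to 11.05 in ligated livers, and 8.15 to 8.40 against 8.93 to 9.79 at day 7. It stayed above sham without overlap on both days, with a difference of -1.64 ± 0.32 (adjusted p 0.00318).

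Among 19 genes of NF-kB feedback and immediate early response, 14 were higher in BDL at day 1 and 15 at day 7. Of all genes, 8.52% and 14.2% were. None passed for the difference of effects, whose median was -0.09, although 1 did, with a lower effect, with the term for the array set and without the 4 unlike arrays. Ccl2, the monocyte attractant, read 5.28 to 5.47 in day 1 shams against 7.29 to 9.14 in ligated livers, and 5.24 to 5.79 against 7.85 to 8.92 at day 7. Its effects of 2.85 and 2.70 differed by -0.15 ± 0.39 (adjusted p 0.895). Cdkn1a, the cell cycle inhibitor p21, gave 3.44 and 2.85 (difference -0.58 ± 0.44, adjusted p 0.543), and Hmox1, heme oxygenase, gave 1.77 and 1.59 (difference -0.18 ± 0.27, adjusted p 0.801). Of 13 p53 targets, 12 neutrophil markers, 21 cytokines and chemokines and 14 clock genes, none passed, although 4 of the cytokine list and 1 clock gene did with the term for the array set. Of the p53 targets 6 were higher in BDL on each day, and of the neutrophil markers 5. Unadjusted, 2548 of all 14699 genes had a p under 0.05.

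Mitosis genes were higher in ligated livers at day 7 (19 of 21 called, against 14.2% of all genes) and none was called at day 1. Mki67, the proliferation antigen, read 6.05, 5.67 and 6.05 in day 1 shams and 5.93, 5.78, 5.12, 5.23 and 5.56 in ligated livers. By day 7 the values were 6.22, 6.07, 5.89 and 5.90 in shams and 7.77, 7.08, 8.20, 7.15 and 7.93 in ligated livers. All ligated livers of day 7 were above the other 12 livers, and the groups of day 1 overlapped. BDL minus sham was -0.40 at day 1 (adjusted p 0.328) and 1.61 at day 7, with a difference of 2.01 ± 0.34 (adjusted p 0.00115). Without the 4 unlike arrays it was 1.71 (adjusted p 0.0594).

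Ccnb2, cyclin B2, read 5.59, 5.44 and 5.17 in day 1 shams and 4.70, 4.95, 5.19, 5.45 and 5.14 in ligated livers. On day 7 the arrays gave 5.65, 5.48, 5.15 and 5.73 in shams and 7.48, 6.84, 7.67, 6.72 and 7.12 in ligated livers. Its difference of 1.98 ± 0.34 (adjusted p 0.00115) passed under every alternative tried, as did that of Prc1, a crosslinker of spindle microtubules (2.04 ± 0.32, adjusted p 0.00094). Top2a, the topoisomerase that untangles chromosomes, gave 1.86 ± 0.40 (adjusted p 0.00667). Prc1 and Top2a had means under 5 in 3 groups, so their sizes have no rank. Of 21 tested mitosis genes, 16 passed, all with a higher effect at day 7 (3.48% of all genes). The medians of the 21 were -0.14 at day 1, 0.98 at day 7 and 1.16 for the difference.

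The mean of the list on each array lay between 4.74 and 5.20 in all 12 livers outside the ligated group of day 7 and between 5.55 and 6.25 within it. With 1 array left out 13 to 16 of the 21 passed, but 3 without the 4 unlike arrays. Of 19 tested DNA replication genes all had a difference above 0 (median 0.71), yet only 3 passed: Mcm6 (1.67 ± 0.39, adjusted p 0.0127), Mcm2 (1.24 ± 0.29, adjusted p 0.0127), both parts of the replicative helicase, and Pole, a replicative polymerase (1.13, adjusted p 0.0441, lost in 14 of 17 fits). Ccnd1, cyclin D1, which acts before DNA replication, was already raised at day 1 by 1.75 and gave 1.18 at day 7 (difference -0.57, adjusted p 0.518).

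Promoters of mitosis genes are known to carry CCAAT boxes and a cell cycle element, TTTGAA. RefSeq promoter windows (assembly GRCm38.p6, 250 bases before to 50 after the start) were at hand for 17 of the list's genes, in 18 windows. CCAAT on either strand was found in 17 of the 18 (94.4%) and in 37.4% of all 32851 windows. TTTGAA on either strand was in 16 (88.9%, against 17.9% of all), and both motifs in 16 (88.9%, against 6.95%). These counts describe letters in a window and no binding. The 250 bases before the start are printed for 3 genes whose divergence between the days is given above, on the gene's own strand, with both motifs in capitals on either strand. They do not overlap in these bases.
Ccnb2, chr9:70421555-70421804, minus strand: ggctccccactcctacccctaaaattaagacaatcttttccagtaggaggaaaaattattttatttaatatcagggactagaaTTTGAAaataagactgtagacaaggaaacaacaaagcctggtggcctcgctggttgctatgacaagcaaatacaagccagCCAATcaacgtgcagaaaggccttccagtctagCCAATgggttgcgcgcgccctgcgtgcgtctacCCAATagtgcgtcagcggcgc
Mki67, chr7:135716380-135716629, minus strand: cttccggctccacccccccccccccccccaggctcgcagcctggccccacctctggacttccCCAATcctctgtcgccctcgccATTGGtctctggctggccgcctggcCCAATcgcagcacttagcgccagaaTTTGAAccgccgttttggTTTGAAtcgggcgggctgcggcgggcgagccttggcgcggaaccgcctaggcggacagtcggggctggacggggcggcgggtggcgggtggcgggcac
Top2a, chr11:99024190-99024439, minus strand: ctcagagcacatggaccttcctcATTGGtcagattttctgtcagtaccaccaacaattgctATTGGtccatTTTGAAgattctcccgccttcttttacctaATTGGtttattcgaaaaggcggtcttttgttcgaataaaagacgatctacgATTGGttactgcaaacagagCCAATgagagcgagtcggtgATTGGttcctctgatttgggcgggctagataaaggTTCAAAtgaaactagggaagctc
Ccnb2 holds 3 CCAAT and 1 TTTGAA in these bases, Mki67 holds 3 and 2, and Top2a holds 6 and 2. The same stretch of Prc1, not printed, holds 1 CCAAT and 0 TTTGAA. TTTCCCGC and TTTGGCGC, letters of E2F sites, were in 17.6% and 23.5% of 17 windows of DNA replication genes (1.07% and 0.514% of all). TGACNNNGC, the core of the antioxidant element, was in 40% of 15 windows of NRF2 target genes (12.4% of all). TCACNCCAC, letters of a sterol element, was in 1 of 16 windows of cholesterol genes (6.25%, against 1.24% of all), on either strand as for the others. The NRF2 list gave 1 call of 13, for Me1.

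**Figure D3:**
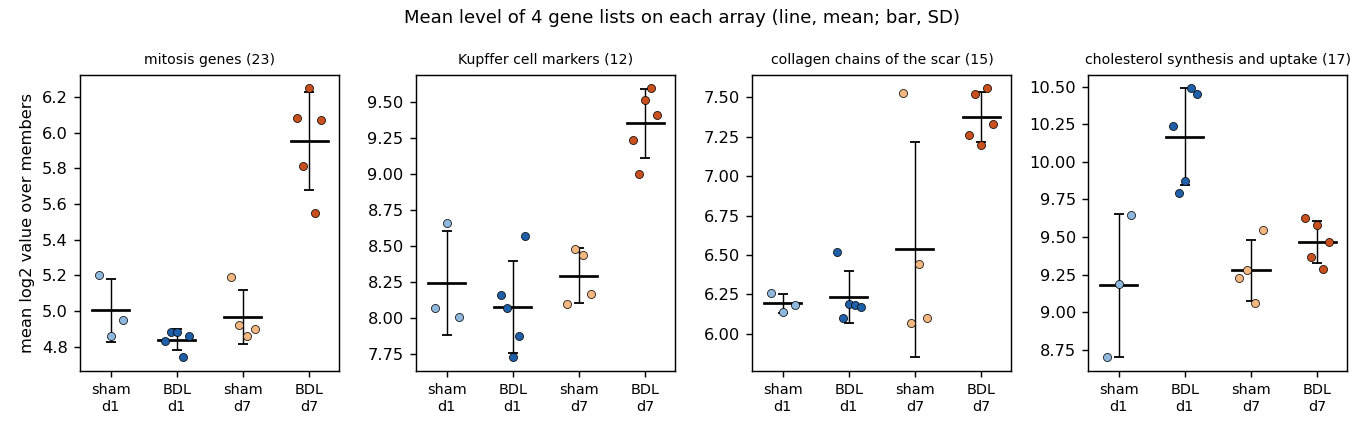
Mean log2 level over the measured members of 4 gene lists on each array, by group, with the group mean as a line and the SD as a bar. The mitosis and Kupffer means are highest on all 5 ligated arrays of day 7, the cholesterol mean is highest on the 5 ligated arrays of day 1, and the collagen mean of 1 sham array of day 7 (7.53) lies within the ligated range of 7.20 to 7.56.

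Kupffer cell markers were higher in ligated livers at day 7 (10 of 12 called, against 14.2% of all genes). At day 1 they were mostly uncalled (1 higher and 2 lower, against 8.52% and 4.8% of all genes). Cd5l, a secreted protein of Kupffer cells, read 8.62, 9.34 and 8.74 in day 1 shams and 8.77, 8.33, 7.52, 8.05 and 9.32 in ligated livers. At day 7 it read 8.51, 8.87, 9.02 and 8.52 in shams and 10.46, 10.23, 10.71, 10.45 and 10.61 in ligated livers. All ligated livers of day 7 were above every other liver. Its difference was 2.26 ± 0.36 (adjusted p 0.000957), called under every alternative tried.

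Folr2, a folate receptor (1.79 ± 0.36, adjusted p 0.00413), was also called under every alternative. Vsig4, a complement receptor (1.63 ± 0.39, adjusted p 0.0146), lost its call without sham replicate 2 of day 1 (1.14, adjusted p 0.0543). Of 12 Kupffer markers 9 passed, all with a higher effect at day 7 (among them Cdh5, a cadherin of endothelium, and C6, a complement component), and the medians were -0.40 at day 1, 1.02 at day 7 and 1.29 for the difference. This count was 7 to 9 with 1 array left out and 7 without the 4 unlike arrays. Clec4f, a lectin of Kupffer cells and among the 14 genes that went from lower to higher, was named after its values were seen. It read 9.06, 9.50 and 8.90 in day 1 shams, 8.00 to 8.70 in ligated livers, 8.88 to 9.15 in day 7 shams and 9.42 to 9.93 in ligated livers. Neither pair of groups overlapped, and its difference was 1.40 ± 0.25 (adjusted p 0.00153).

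Of 17 markers of monocyte-derived and scar-associated macrophages, 6 were higher in BDL at day 1 (8.52% of all genes) and 16 at day 7 (14.2% of all genes). Mmp12, macrophage elastase, read 4.70, 4.72 and 4.41 in day 1 shams and 5.44, 5.08, 5.08, 4.97 and 5.35 in ligated livers. Day 7 levels were 4.81, 4.33, 4.93 and 4.62 in shams and 7.94, 6.91, 7.55, 7.78 and 7.66 in ligated livers. The difference was 2.33 ± 0.31 (adjusted p 0.000237), called under every alternative tried, though its shams lie under the filter level and the size has no rank. Gpnmb, a membrane protein of lipid-laden macrophages, gave 2.23 ± 0.41 (adjusted p 0.0021).

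Adgre1, an adhesion receptor of macrophages, gave 1.66 ± 0.32 (adjusted p 0.00328). Of the 17, Mmp12 included, 7 passed for the difference (4 without the 4 unlike arrays) and none was lower, with medians of 0.42 at day 1 and 1.27 at day 7. Itgam, CD11b of infiltrating myeloid cells, was raised on both days by 1.36 and 1.43 and did not differ beyond its error (0.08, adjusted p 0.940). The lectin receptors Clec7a (2.51 ± 0.41, adjusted p 0.000957) and Clec12a (2.28 ± 0.37, adjusted p 0.000957) and the proton pump subunit Atp6v0d2 (2.69 ± 0.50, adjusted p 0.00231) were among the 12 largest differences. Without the 4 unlike arrays, Atp6v0d2 gave 1.45 (adjusted p 0.258). In the ligated livers of day 7 Clec7a read 8.32 to 8.78, against 4.88 to 6.44 on the other 12 arrays.

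The B and plasma cell list held 2 calls among 8 genes, H2-Aa (1.67 ± 0.39, adjusted p 0.0127) and H2-Ab1 (1.66 ± 0.48, adjusted p 0.0432, lost in 10 of 17 fits). Both encode class II antigen-presenting chains, which macrophages also carry. The defining B cell chain Cd79a gave -0.70 (adjusted p 0.135). None of 9 T and NK cell markers passed. Gbp8, a guanylate-binding protein, stood out for its crossing. It read 6.92, 6.72 and 6.84 in day 1 shams and 5.55, 5.42, 5.89, 6.00 and 5.21 in ligated livers. By day 7 the values were 6.21, 6.32, 5.90 and 6.81 in shams and 7.05, 7.49, 7.44, 7.14 and 8.38 in ligated livers. Neither pair of groups overlapped, with -1.21 at day 1 and 1.19 at day 7 (difference 2.40 ± 0.39, adjusted p 0.000957, called under every alternative tried), but Gbp genes are alike in sequence. Of 14 interferon-stimulated genes only Oasl2 passed (1.21, adjusted p 0.0401), and it was lost in 11 of 17 fits. With the term for the array set 4 passed. Of the 14 differences 12 were above 0 (median 0.66).

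Of 15 collagen chains 9 were higher in BDL at day 7 and 1 at day 1, when 1 was lower. Of 19 matrix glycoproteins, crosslinkers and proteases 15 were higher at day 7 and 4 at day 1. Of all genes, 14.2% were higher at day 7 and 8.52% at day 1. Col3a1, the fibrillar collagen III chain, read 6.76, 6.84 and 6.53 in day 1 shams and 7.66, 5.94, 6.40, 6.49 and 6.69 in ligated livers. On day 7 the arrays gave 9.23, 6.45, 7.31 and 6.38 in shams and 9.15, 9.71, 9.28, 9.63 and 9.31 in ligated livers. Sham replicate 1 of day 7 fell among the ligated livers. The difference was 2.15 ± 0.54 (adjusted p 0.0213), lost without sham replicate 2 or 4 of day 7 (adjusted p up to 0.0578), and values were 1.83 to 2.78 with 1 array left out.

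Col1a1, the main chain of the scar, read 10.43 in that sham liver, above all ligated livers of day 7 (9.22 to 9.99), and 6.16 to 7.38 in the other 3 shams. Its difference of 1.57 ± 0.75 did not pass (adjusted p 0.279). Without that array it was 2.53 (adjusted p 0.00145), and Col1a2 moved from 1.17 (adjusted p 0.334) to 1.98 (adjusted p 0.00145). Of 15 collagen chains 5 passed, all higher (median 0.59), 10 without that array and 1 without the 4 unlike day 1 arrays. Without those 4, Col3a1 gave 1.97 (adjusted p 0.194). Col6a3 gave 1.39 ± 0.35 (adjusted p 0.0199; lost without sham replicate 3 of day 7, adjusted p 0.0538). Col14a1 gave 1.35 ± 0.34 (adjusted p 0.0193; lost without sham replicate 2 of day 1, adjusted p 0.0697), and had fallen by 0.89 at day 1.

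Of the 19 matrix genes 6 passed, 4 without the 4 unlike arrays, and 10 did without sham replicate 1 of day 7, but 2 without sham replicate 4 of day 7 or replicate 2 of day 1. Lum, lumican, which spaces collagen fibrils, gave 1.82 ± 0.39 (adjusted p 0.00738), and Postn, periostin, 1.55 ± 0.41 (adjusted p 0.0280, lost in 7 of 17 fits). Timp1, an inhibitor of matrix proteases, was above sham on both days, by 0.82 and 1.87, and its difference of 1.05 (adjusted p 0.109) passed without sham replicate 1 of day 7 (1.38, adjusted p 0.0112).

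Of 17 stellate cell and myofibroblast markers 4 passed. Lrat, the retinol-storing enzyme of stellate cells, read 6.68, 7.70 and 6.97 in day 1 shams and 6.08 to 6.91 in ligated livers, and 7.33 to 7.75 against 7.82 to 8.73 at day 7 (difference 1.37 ± 0.38, adjusted p 0.0358, lost in 10 of 17 fits). The growth factor receptor Pdgfrb (1.29, adjusted p 0.0369) was lost in 11 of 17 fits and Gas6, a ligand of the TAM receptors (1.21, adjusted p 0.0276), in 3, those without sham replicates 3 or 4 of day 7 or replicate 3 of day 1. Without sham replicate 3 of day 7 none of the 4 passed. Acta2, smooth muscle actin, gave 0.54 and 1.05 (difference 0.51 ± 0.40, adjusted p 0.573). It read 9.16 in sham replicate 1 of day 7 and 7.31 to 7.53 in the other 3 shams, and without that array the difference was 0.94 (adjusted p 0.0797).

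Duct markers were higher in BDL at day 7 for 11 of 14 tested genes (14.2% of all genes), with a median of 0.95. At day 1, 2 were higher (8.52% of all genes), with a median of 0.17. Only 2 passed for the difference of effects, both with a higher effect at day 7 (3.48% of all genes). Muc1, a mucin of duct epithelium, read 4.96 to 5.86 in day 1 shams and 5.15 to 6.08 in ligated livers, and 5.37 to 5.83 against 6.71 to 7.58 at day 7 (difference 1.28 ± 0.29, adjusted p 0.00924, called under every alternative tried). Cftr, the chloride channel of duct cells, gave 0.88 ± 0.24 (adjusted p 0.0302), with all group means under 5, and was lost in 7 of 17 fits.

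Krt19, the duct keratin, rose by 0.70 at day 7 and gave 0.20 at day 1 without a call (difference 0.50, adjusted p 0.135). Sox9, the transcription factor of duct and progenitor cells, was 1.46 above sham at day 1 and 1.01 above at day 7 (difference -0.45, adjusted p 0.586). Cd24a, a surface protein named after its values were seen, was the other duct gene called at day 1, with 0.70 and then 1.37 (difference 0.66, adjusted p 0.210). Sprr1a, a cornified envelope protein of stressed epithelia, read 4.80, 4.23 and 4.72 in day 1 shams and 8.02, 6.52, 6.27, 8.12 and 8.72 in ligated livers. At day 7 it read 4.40 to 5.06 in shams and 9.72, 9.68, 10.59, 10.18 and 9.67 in ligated livers. It rose by 2.95 and 5.34, with a difference of 2.39 ± 0.61 (adjusted p 0.0233), lost without sham replicates 1 or 3 of day 1 (adjusted p up to 0.055). Without the 4 unlike arrays it was 1.28, and its shams lie under the filter level.

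Sinusoidal endothelial markers were low early. Of 16 tested genes 7 were lower in BDL at day 1 (4.8% of all genes) and none at day 7, and all 16 differences were above 0 (median 0.66). In the main fit 2 passed, and 5 did with the term for the array set. The list's median change from day 1 to day 7 was 0.58 in sham livers and 1.05 in ligated livers. Kdr, the receptor VEGFR2, read 7.66, 8.72 and 8.08 in day 1 shams and 7.31, 6.68, 6.86, 6.83 and 6.52 in ligated livers, and 8.73 to 9.02 against 8.39 to 8.81 at day 7. The groups were apart at day 1 and overlapped at day 7 (difference 0.97 ± 0.27, adjusted p 0.0348, lost in 10 of 17 fits). Pecam1, an adhesion molecule of all endothelium, gave 0.88 ± 0.20 (adjusted p 0.0115). Sham livers also differed in Kdr between the days, by 0.73 (adjusted p 0.0429), a call not made with the term for the array set.

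For a few acute phase genes the difference lay in the sham livers. Orm2, an acute phase glycoprotein with near-identical relatives, read 12.83, 12.73 and 12.71 in day 1 shams, 12.69 to 13.40 in day 1 ligated livers, 9.92, 11.28, 11.76 and 9.08 in day 7 shams and 12.86 to 13.40 in day 7 ligated livers. Only the shams of day 7 were low. Sham livers fell by 2.24 from day 1 to day 7 (adjusted p 0.0024), ligated livers showed 0.14 with no call, and the difference of effects was 2.38 ± 0.44 (adjusted p 0.00237; 2.20 and 0.0754 without the 4 unlike arrays). Hp, haptoglobin, was likewise lowest in the shams of day 7, which fell by 0.60 from day 1 (difference 0.47 ± 0.13, adjusted p 0.0423, lost in 10 of 17 fits).

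They were the 2 called of 24 acute phase genes. Lcn2, lipocalin 2, read 11.95 to 12.48 in day 1 shams and 9.03, 10.56, 12.01 and 8.70 in day 7 shams, and its difference of 1.71 ± 0.58 missed the threshold (adjusted p 0.0938) but passed without sham replicate 3 of day 7. Of all genes with a higher effect, 11 of 511 (2.15%) had this pattern, with a fall in sham livers and no call in ligated ones. Sham livers differed between the days for 604 genes in all (4.11%). That count was 1 with the term for the array set, to which 2 of the 3 day 1 shams belong.

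**Figure D4:**
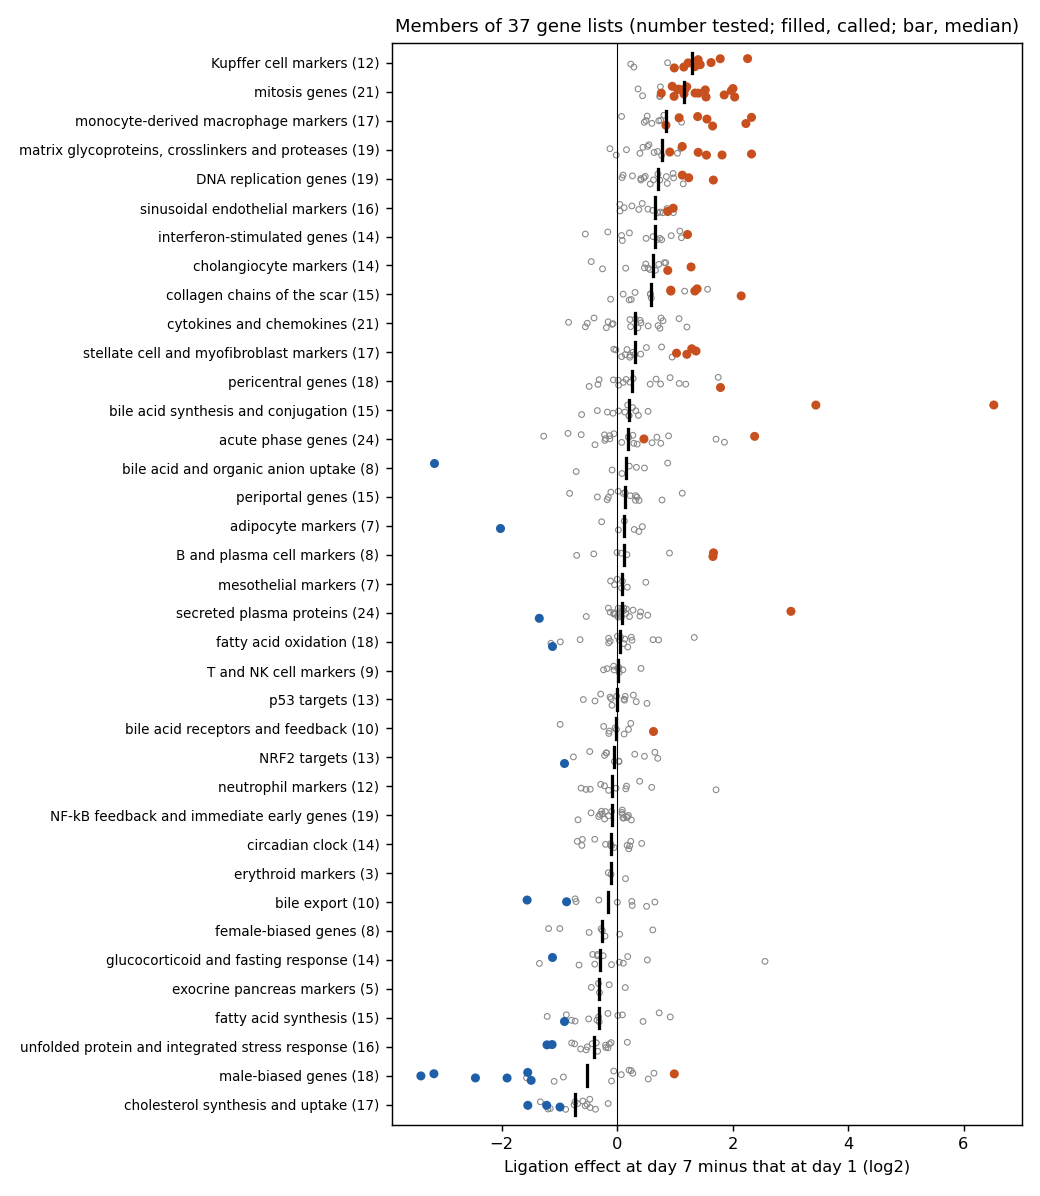
Difference of effects (day 7 minus day 1, log2) for the tested members of each of 37 gene lists, ordered by median; filled points passed the test, open points did not, and the bar is the list's median. Kupffer markers (median 1.29), mitosis genes (1.16) and monocyte-derived macrophage markers (0.85) lie at the top, and cholesterol genes (-0.73) and male-biased genes (-0.51) at the bottom.

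F11, coagulation factor XI, crossed downward. It read 9.47, 9.92 and 9.68 in day 1 shams and 10.63, 10.39, 10.60, 10.80 and 10.79 in ligated livers. Day 7 levels were 9.46, 10.11, 9.84 and 10.33 in shams and 9.59, 9.46, 9.55, 9.45 and 9.64 in ligated livers. The groups were apart at day 1 and overlapped at day 7. It was 0.95 above sham at day 1 and gave -0.39 at day 7 (adjusted p 0.0426), with a difference of -1.35 ± 0.20 (adjusted p 0.000736) that was called under every alternative tried. Only F11 and Serpina6 passed among 24 secreted plasma proteins, whose median difference was 0.08.

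Markers of tissue from outside the lobule moved little with these results. The mean level of 10 exocrine pancreas genes was 4.65 to 4.83 in ligated livers of day 1, 4.38 to 4.56 in those of day 7 and 4.51 to 4.78 in shams. The mean of 9 adipocyte genes was 5.25 to 5.76 in all 17 livers, with Adipoq not among the genes tested, and that of 8 mesothelial genes was 4.96 to 5.74. The mean of 3 erythroid genes was 5.44 to 5.90. No member of these lists other than Cidec passed, and their part in the results was not tested.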

How the data were processed

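The 29 liver arrays fall into 7 groups by operation and day. As each title has its own animal number, the spread behind a p-value is that between animals, and replicate numbers only name arrays. The authors deposited log2 levels, made with RMA in oligo 1.52.0 according to the labels and per the submitters' processing notes. RMA gives arrays a shared distribution of probe signals before these are combined into levels. The deposited levels still differed, with array medians over all rows of 4.90 to 5.13. The arrays normalized together, and the genome build, are not given in these sources. Row identifiers match Mouse Gene 2.0 ST, whose annotation gave the names, although a protocol in the labels names another Affymetrix mouse array.

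Of 41345 rows, 23521 had 1 symbol, 1814 several and 16010 none, and 23328 of the first were matched to a RefSeq gene table of GRCm38.p6. The row of highest mean was kept per gene (22180 genes), and 14699 with a level over 5 on 3 or more arrays were tested. All 29 arrays entered a limma 3.58.1 fit in R 4.3.3, with a mean for each of the 7 groups. Two-sided p-values were adjusted by Benjamini-Hochberg over all genes tested, with a threshold of 0.05. The script was checked on simulated data.

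The contrast, the gene lists and the alternatives were chosen with earlier results of these data known. Lists are described by counts and medians, with no set test. Named genes are the 12 largest called differences in each direction that were also called with a term for the array set, up to 3 called members per list, and 24 genes named whatever their result (1 of them not analysed here). Of 82 named, 62 were called. Predicted and small RNA genes were passed over. Other genes in the text were chosen after their values were seen. Alternatives changed the filter, the row per gene, the scaling, the arrays fitted, the array set, the weights and the variance prior, and left out each array in turn. Families of near-identical genes (Mup, Cyp2c, Cyp4a, Serpina, Orm, Gbp) have uncertain values. Precision is bounded by how few arrays there are, with a median SE of 0.205 for the difference of effects.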

Additional observations from a re-analysis of the deposited data

Results flagged for a closer look

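The ligation effect differed between day 7 and day 1 for 637 genes by the interaction test itself. Among named genes, Gbp8 went from lower to higher in BDL, with a difference of effects of 2.40, and F11 from higher to lower, with -1.35.

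Of 243 groups of 4 or 5 arrays checked for the named genes, 7 held an array set off from the rest by Dixon's criterion, which chance alone passes in about 1 group in 20. Sham replicate 1 of day 7 accounts for 3: Acta2 at 9.16 (7.31 to 7.53 in the other 3 shams), Col6a3 at 7.74 (5.97 to 6.25) and Slc10a1 at 11.63 (12.15 to 12.24). BDL replicate 1 of day 7 accounts for 2: Elovl3 at 9.03 (7.00 to 7.24) and Mup3 at 12.84 (12.12 to 12.27). The others are Cyp7a1 at 9.81 in sham replicate 4 of day 7 (10.84 to 10.87) and Clec7a at 6.41 in BDL replicate 5 of day 1 (4.88 to 5.27).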

How the results depend on the processing

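Of 62 named calls, 32 passed in all 17 fits with 1 array left out and 17 under every alternative, and none changed sign. Calls were lost for 36 without the 4 unlike day 1 arrays, 20 with only those at day 1, 12 in a fit of only the 17 arrays, 5 under cyclic loess and 1 with a term for the array set. The 637 genes became 1076 with that term, 287 without those arrays, 1009 with the term and without sham replicate 1 of day 7 (chosen after seeing the data), and 444 to 739 with 1 array left out. The share with a higher effect, 80.2%, was 60.2% with array weights and 55.3% without sham replicate 2 of day 1. Genes called at day 1 (1958) were 597 without the set, 1290 with only the set and 1268 to 2750 with 1 array left out, with 52.0% higher under cyclic loess against 63.9%. The day 7 count (2819) was 2267 to 3046, with 1897 higher and 1169 lower under cyclic loess against 2088 and 731. Between the BDL groups 4645 genes were called, 3081 with the term and 2875 without the set. Between the shams 604 were called, 1 with the term, 1 without the set, 3548 with only the set, 20 in the fit of 17 arrays, 1879 with array weights, 3 with the added alternative and 2 to 3040 with 1 array left out. Where a group kept 1 array, it was assumed to vary like the others. No paired analysis was possible because the titles carry a different animal number for each array, and replicate numbers are accession order. The cause of these shifts was not tested.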
